A study of Homo sapiens with 30 samples.

Results

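The comparison described here asks how far the transcriptome responded alike to 2 mutant forms of the largest subunit of RNA polymerase II, RPB1. For each gene the change on replacing RPB1 with the Y1F form was set against the change on replacing it with the S5A form, by subtracting the S5A change from the Y1F change. The members are the 8 poly(A) RNA-seq libraries of these 4 groups, 2 libraries in each, of 30 in the series. All 4 groups carry an RPB1 degron, a tag through which the small molecule dTAGV-1 removes the endogenous protein, and a doxycycline-inducible RPB1 complement. In the Y1F line that complement has a carboxy-terminal domain (CTD) with tyrosine at position 1 of its repeats changed to phenylalanine. In the S5A line serine at position 5 is changed to alanine. Untreated libraries received neither agent, so the lines are compared before induction. Treated libraries received 2 µg/mL doxycycline for 24 h and 100 nM dTAGV-1 for 12 h. The same treatment was given in lines with WT, S2A, T4V and S7A complements, and a line with the degron alone received dTAGV-1. Which of the CTD repeats carry the change, whether a line is 1 clone, and whether the 2 libraries of a group came from separate cultures is stated in none of the sources. The p-values therefore rest on the spread between libraries of the same group, shared over all 15 groups of the series, which may be technical. Doxycycline and loss of endogenous RPB1 cannot be told apart within a line.

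As background, the CTD is a long tail of near-identical heptad repeats built of a tyrosine, serines, prolines and a threonine. Phosphorylation of serine 5 by the kinase of TFIIH marks early transcription and recruits the capping enzymes. Tyrosine 1 can also be phosphorylated and has been tied to elongation, to termination and to the stability of the polymerase. A phenylalanine keeps the aromatic ring of tyrosine without its hydroxyl group, and an alanine removes the hydroxyl group of serine.

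The 8 libraries held 11360302 to 17912802 counted reads. Values per gene are CPM, read counts scaled to a common effective library size, and so are relative to the typical gene of each library. Cells are labelled A549, a lung adenocarcinoma line in which the 9p21 region is known to be deleted. The deleted genes were nevertheless counted, with CDKN2A at 91.2 to 129 CPM and MTAP at 42.5 to 62.8 CPM in the 8 libraries. CDKN2B, the other of the 3 listed, was at 8.88 to 24.4 CPM. It was the 1 of the 3 whose difference between the lines passed (1.13 on the log2 scale, higher in Y1F). The epithelial keratin KRT7 was at 0 in all 8, and AKR1C1 and AKR1B10 were at 0 to 0.08 CPM. Of the other listed lung and A549 markers, KRT18 was at 19.9 to 41.3 CPM, NKX2-1 at 5.32 to 7.31 CPM and NQO1 at 5.11 to 7.28 CPM. SFTPA1, SFTPB, SFTPC and SFTPD were at 0 to 0.70 CPM, and NAPSA and ALDH1A1 at 0.42 to 1.51 CPM. Of the 23 listed, 2 were at 0 in all 8 libraries, and the list summed to 95.8 to 124 CPM. IRS4 reached 928 to 1430 CPM in the untreated libraries. It was on a list of 15 kidney HEK293 or neuronal markers, which summed to 1265 to 1747 CPM there. IRS4 itself was the larger part of that sum, and TUBB3, also listed, was at 0.18 to 0.33 CPM in the untreated libraries. In that list 1 marker was at 0 in all 8 libraries. The cells are called here by their label alone. Summed immune markers went from 8.44 and 10.5 CPM, the lower and the higher library, to 16.6 and 19.4 CPM in Y1F and from 12.3 and 13.4 CPM to 28.9 and 31.9 CPM in S5A. Summed endothelial markers likewise went from 4.75 and 6.76 CPM to 15.8 and 16 CPM and from 5.61 and 6.13 CPM to 21.4 and 21.6 CPM. Both sums were higher in the treated libraries of either line, and highest in treated S5A. Fibroblast markers summed to 25.5 to 40.1 CPM over the 8 libraries. The difference passed for 0 of the 6 immune, 7 endothelial and 4 fibroblast markers tested, and the part of such cells in the results was not tested.

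POLR2A (chromosome 17, 7484366 to 7514616, GRCh38), which encodes RPB1, was counted at 369 and 296 CPM in untreated Y1F and at 593 and 671 CPM in treated Y1F. In the S5A line it was 379 and 420 CPM untreated and 1004 and 1075 CPM treated. The treated libraries were above the untreated ones in both lines, and the counts cannot separate endogenous RNA from that of the complement. POLR2A rose by 0.93 on the log2 scale in Y1F (edgeR's quasi-likelihood test, adjusted p = 0.00525) and by 1.38 in S5A (adjusted p = 0.000128). The difference of -0.45 ± 0.36 (SE) did not pass (adjusted p = 0.613). A fit on these 8 libraries alone gave it an adjusted p of 0.047. In the authors' deposited table, scaled on their own factors, the changes of POLR2A were 0.09 in Y1F and 0.47 in S5A. The amount of complement made was not measured here, and its part in the differences below was not tested.

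The responses to Y1F and S5A were correlated over genes, and most genes that changed in both lines did so in the same direction. Of 19982 genes tested, 8823 changed in Y1F (44.2%; 4268, or 21.4%, up and 4555, or 22.8%, down) and 10027 changed in S5A (50.2%; 4743, or 23.7%, up and 5284, or 26.4%, down). In 6791 genes both lines changed in the same direction, against 62 in opposite directions. The 2 sets of log2 changes, which share no library, had a Pearson r of 0.80 over all genes and 0.85 over the 11506 genes whose mean was 5 CPM or more. These are correlations across genes, which are not independent replicates. Of the 11506 genes, 9189 (79.9%) had a difference whose 95% interval lay within 2-fold in either direction. The median size of a change was 0.50 in Y1F and 0.57 in S5A on the log2 scale, and the median size of the difference was 0.31. A 2-fold bound is wider than the median change, so lying within it does not by itself show likeness. Genes under 5 CPM are not in that count.

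The difference itself passed at an adjusted p under 0.05 in 744 genes, 3.72% of those tested (edgeR's quasi-likelihood test, adjusted over all genes by Benjamini-Hochberg). It was higher in Y1F in 484 genes (2.42%) and lower in Y1F in 260 (1.3%). Before treatment 659 genes (3.3%) differed between the lines, and after it 4416 (22.1%) did. The count of 744 was sensitive to each library. It fell to 424 without untreated Y1F replicate 1, 362 without untreated Y1F replicate 2, 378 without treated Y1F replicate 1 and 383 without treated Y1F replicate 2. It was 319 without untreated S5A replicate 1, 371 without untreated S5A replicate 2, 335 without treated S5A replicate 1 and 301 without treated S5A replicate 2. Scaling the libraries on the mitochondrial mRNAs moved the median difference of all genes from 0.02 to 0.40 and the split to 2647 higher and 82 lower. Scaling with the authors' factors gave 686 higher and 185 lower, with a median of 0.10, and a correction for transcript GC content gave 2050 higher and 1318 lower.

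**Figure D1:**
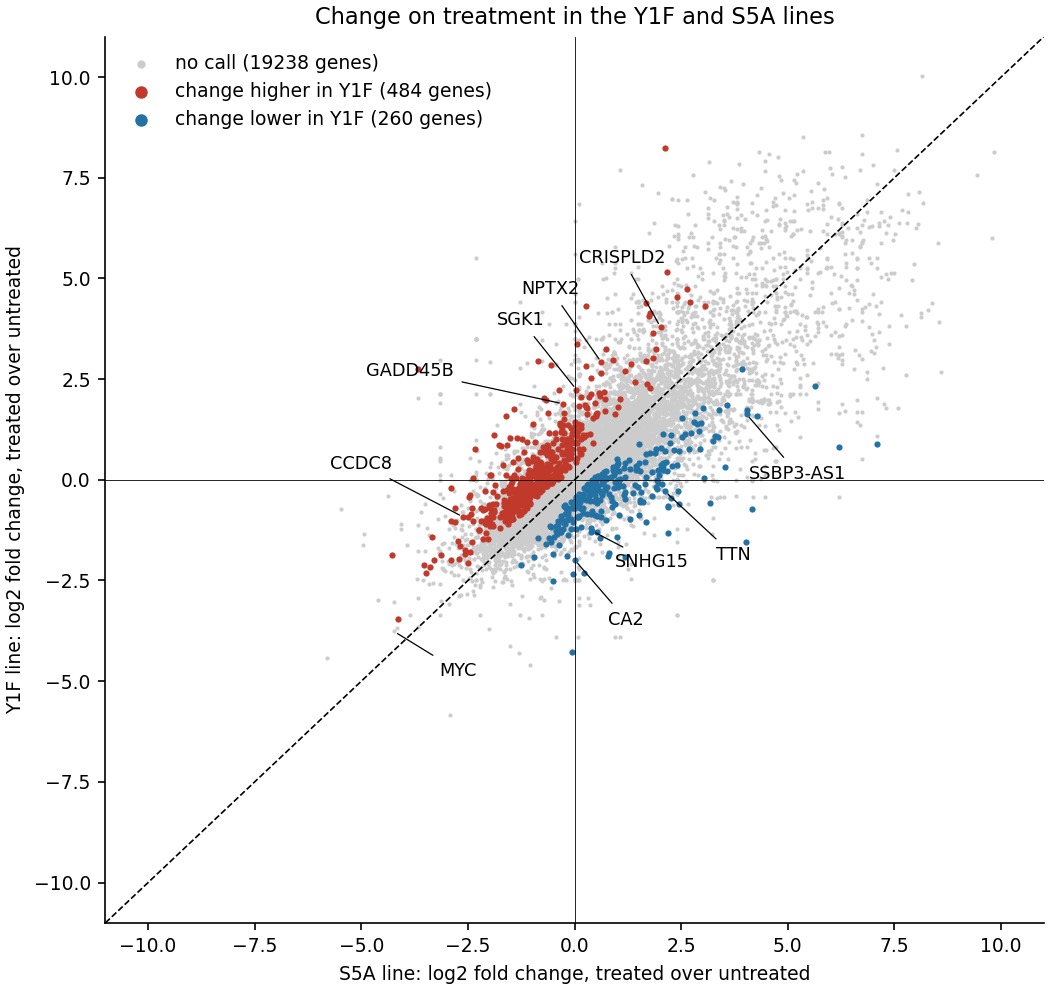
Log2 change on treatment of each gene in the S5A line (horizontal axis) and in the Y1F line (vertical axis), relative to the typical gene, with genes that differed between the lines coloured by direction. Points lie along the diagonal (r = 0.80 over 19982 genes), and 484 genes above it and 260 below it passed the test of the difference.

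Genes whose difference passed fell into several patterns. Among the 484 genes higher in Y1F, 164 fell in both lines but less in Y1F, 152 fell in S5A and were not called in Y1F, 100 rose in Y1F and were not called in S5A, 35 rose in Y1F and fell in S5A, and 33 rose in both. Among the 260 genes lower in Y1F, 114 rose in S5A and were not called in Y1F, 54 fell in Y1F and were not called in S5A, 41 rose in both, 27 fell in Y1F and rose in S5A, and 24 fell in both. The difference was 2-fold or more in 229 of the higher and 135 of the lower genes. Names of rise and fall here are relative to the typical gene. On the authors' own factors the total signal of treated libraries was 51.2% of untreated in Y1F and 49.7% in S5A. The changes of single genes on those factors lay lower by a median of 0.83 and 0.90 on the log2 scale.

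The leading genes were chosen for large called differences whose changes did not overlap between the lines, so that separation of the lines is a description of them and not support. A gain in Y1F without one in S5A was seen in SGK1 (chromosome 6, 134169246 to 134318112), a serum- and glucocorticoid-regulated kinase of ion transport and cell survival. It was at 7.67 and 8.35 CPM in untreated Y1F and 37.9 and 37.8 CPM in treated Y1F, against 9.36 and 8.05 CPM in untreated S5A and 9.55 and 8.47 CPM in treated S5A. Only the treated Y1F libraries were high, and the other 6 overlapped. SGK1 rose by 2.24 ± 0.12 (SE) on the log2 scale in Y1F, while in S5A its change was 0.04 ± 0.13 (adjusted p = 0.864). On the authors' factors it stood at 1.41 in Y1F and -0.86 in S5A. The difference of 2.2 ± 0.18, or 4.58-fold, had an adjusted p of 3.21e-07 by edgeR's quasi-likelihood test.

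CCDC80 (chromosome 3, 112596794 to 112649530), which encodes a secreted protein of the extracellular matrix, had the same shape at a higher level. It went from 26.1 and 23.2 CPM to 103 and 101 CPM in Y1F, and from 29 and 29.5 CPM to 35.5 and 29.7 CPM in S5A. The treated Y1F libraries lay well above the other 6. The difference was 1.89 ± 0.15 (3.71-fold, edgeR adjusted p = 2.47e-07). On the authors' factors CCDC80 stood at 1.22 in Y1F and -0.75 in S5A.

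GADD45B (chromosome 19, 2476122 to 2478259), a stress-inducible gene with a short-lived mRNA, was at 11.3 and 8.44 CPM in untreated Y1F and 34.2 and 39 CPM in treated Y1F. In S5A it was 12.4 and 15.3 CPM untreated and 11.5 and 11.5 CPM treated. The treated Y1F libraries again stood alone. The difference of 2.15 ± 0.29 (4.43-fold) had an edgeR adjusted p of 0.000175. The 250 bases before its start site are shown because it is a compact, inducible gene whose promoter holds several of the 6 short motifs searched below. They are from RefSeq at chr19:2475877-2476126 (GRCh38.p14, plus strand), and capitals mark matches, 1 to CACGTG, 2 to CCAAT and 1 to TATAAA. They stand beside the same window of SNHG17, a gene that differed in the other direction and is described below, at chr20:38435329-38435578 on the minus strand, with no match to any of the 6.
GADD45B: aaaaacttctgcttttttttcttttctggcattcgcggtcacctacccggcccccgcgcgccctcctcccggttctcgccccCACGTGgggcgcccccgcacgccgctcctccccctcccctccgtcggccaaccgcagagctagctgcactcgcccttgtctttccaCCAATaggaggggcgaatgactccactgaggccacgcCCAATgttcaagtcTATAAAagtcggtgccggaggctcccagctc
SNHG17: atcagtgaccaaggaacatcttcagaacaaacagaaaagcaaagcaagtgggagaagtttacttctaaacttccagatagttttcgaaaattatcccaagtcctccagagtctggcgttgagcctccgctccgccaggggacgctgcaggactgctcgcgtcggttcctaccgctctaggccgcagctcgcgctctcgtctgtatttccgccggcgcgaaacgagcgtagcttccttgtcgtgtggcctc
A match is a description of the letters and not of a bound factor. The 2 genes are single examples and do not stand for those higher or lower in Y1F, whose shares with each motif are given below.

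Of the 15 named genes with the highest difference, 8 rose in Y1F and were not called in S5A. NPTX2, a secreted neuronal pentraxin, went from 8.16 and 5.71 CPM to 47.1 and 58 CPM in Y1F, and from 5.68 and 7.56 CPM to 10 and 10.3 CPM in S5A. It rose in both lines, by 2.91 and 0.63 on the log2 scale, and its difference was 2.28 ± 0.34 (edgeR adjusted p = 0.000533). CRISPLD2, another secreted protein, also rose in both, from 2.56 and 2.64 CPM to 37 and 34.9 CPM in Y1F and from 2.26 and 2.36 CPM to 9.63 and 9.06 CPM in S5A. The treated Y1F libraries were the highest for both genes. With the authors' factors NPTX2 stood at -0.27 in S5A. CHST8, a sulfotransferase acting on N-acetylgalactosamine, had a difference of 2.15 ± 0.37 (edgeR adjusted p = 0.00178). IER3, an immediate early gene, went from 4.53 and 3.43 CPM to 11.1 and 9.41 CPM in Y1F and stayed between 3.49 and 4.58 CPM in the 4 S5A libraries (difference 1.64 ± 0.25).

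Other genes higher in Y1F lost RNA in S5A. CCDC8 (chromosome 19, 46410329 to 46413662), a component of the 3M complex with CUL7 and OBSL1, fell from 74.7 and 62.1 CPM to 33.1 and 39.2 CPM in Y1F and from 56.5 and 61.5 CPM to 10 and 9.28 CPM in S5A. It fell in both lines, by 0.92 on the log2 scale in Y1F and by 2.61 in S5A, and the treated S5A libraries were the lowest. The difference was 1.69 ± 0.27 (edgeR adjusted p = 0.00115). MOCS2-DT, a divergent transcript of MOCS2, likewise went from 13.3 and 14.9 CPM to 7.78 and 7.77 CPM in Y1F and from 12.7 and 13.2 CPM to 2.33 and 2.48 CPM in S5A. B3GALT9 was at 7.34, 11.6, 11.1 and 9.41 CPM in the Y1F libraries, untreated then treated, and went from 10.8 and 9.59 CPM to 3.07 and 2.19 CPM in S5A. It fell by 1.97 on the log2 scale in S5A alone among the 2 lines, with a difference of 2.09 ± 0.30 (edgeR adjusted p = 0.000355). In the BCL2 family 5.88% of the tested members were called in each direction, against 2.42% higher and 1.3% lower of all genes. BCL2L2, a pro-survival member of the BCL2 family, fell by 0.95 in Y1F and by 2.06 in S5A (difference 1.11 ± 0.19, edgeR adjusted p = 0.00174). It was the 1 member called higher of 17 tested in that family, and BCL2L1, also pro-survival, was the 1 called lower (-0.95, kept in 1 of the 8 fits that left out a library).

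**Figure D2:**
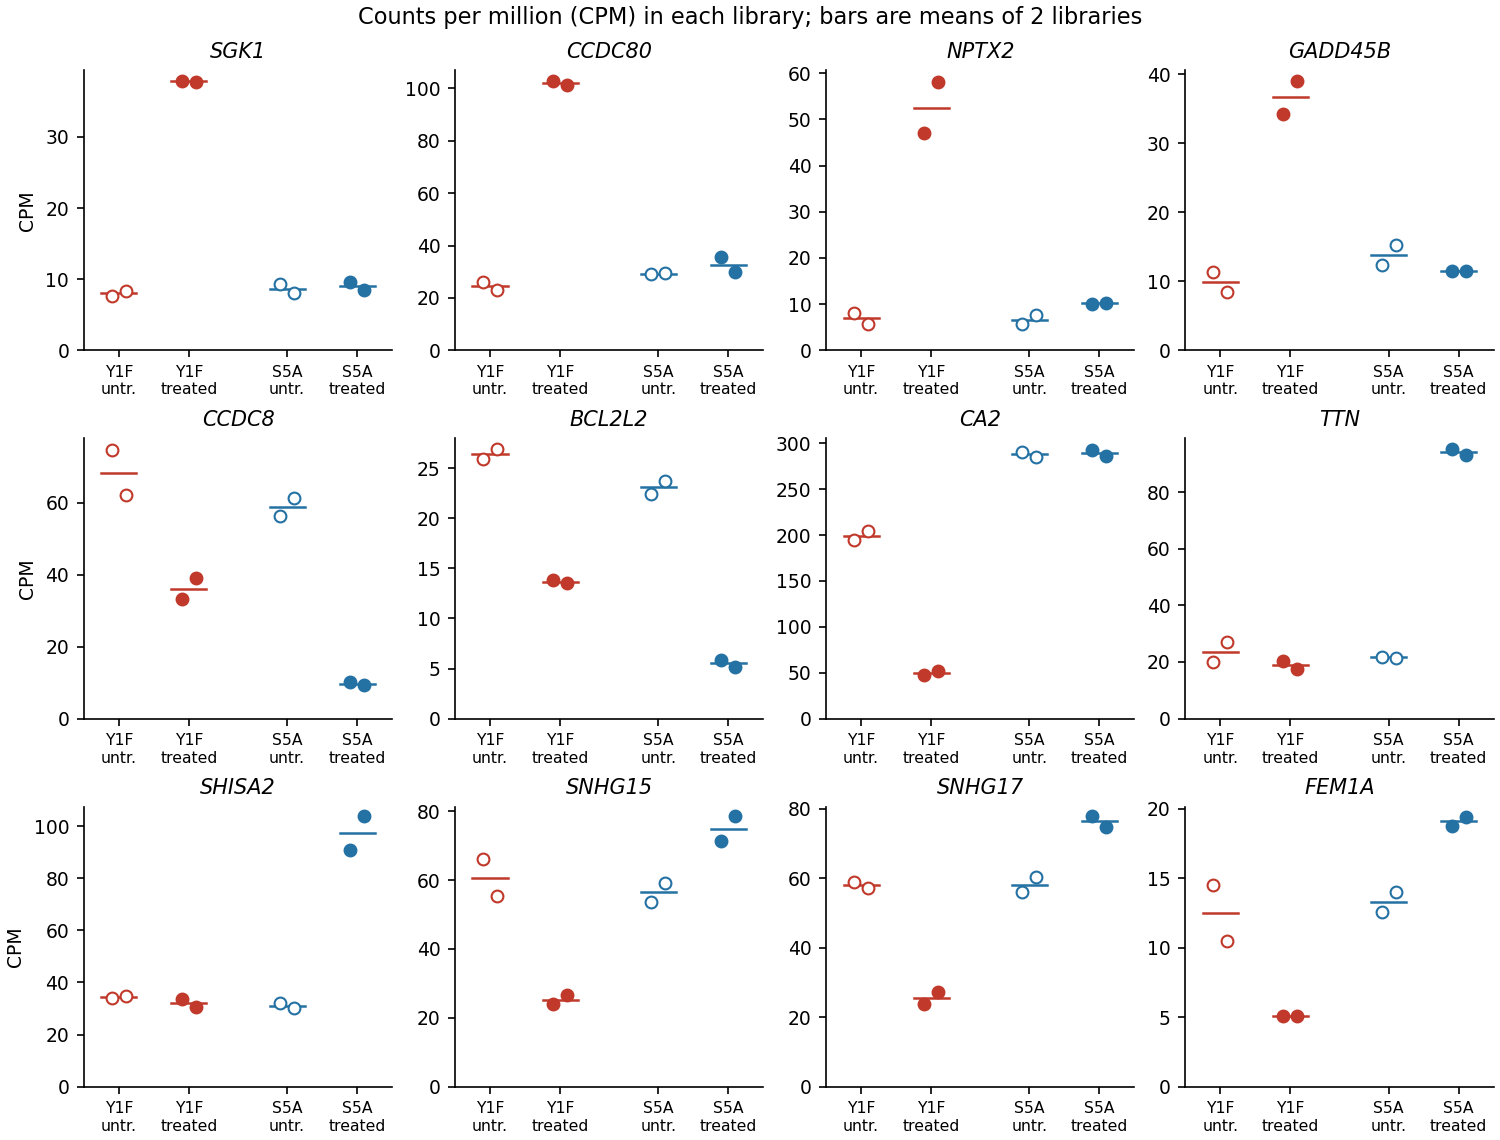
CPM (linear axis from 0) of 12 genes in each of the 8 libraries, untreated as open and treated as filled points, with bars at the means of 2 libraries. SGK1, CCDC80, NPTX2 and GADD45B are highest in the treated Y1F libraries, TTN and SHISA2 only in the treated S5A libraries, and CA2, SNHG15, SNHG17 and FEM1A are lowest in the treated Y1F libraries.

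In the other direction, TTN (chromosome 2, 178525989 to 178830802), which encodes the giant sarcomere protein titin, rose in S5A only. It was at 20 and 26.9 CPM in untreated Y1F, 20.5 and 17.7 CPM in treated Y1F and 21.9 and 21.4 CPM in untreated S5A, against 95.1 and 93.1 CPM in treated S5A. The rise in S5A was 2.12 ± 0.22 on the log2 scale and the value in Y1F was -0.29 (adjusted p = 0.319). The difference was -2.41 ± 0.32, 5.31-fold, with an edgeR adjusted p of 0.00016. SHISA2 (chromosome 13, 26044597 to 26051031), which restrains Wnt and FGF receptors in the endoplasmic reticulum, stood at 34.2, 35, 33.5 and 30.8 CPM in the Y1F libraries and went from 32.1 and 30.1 CPM to 91 and 104 CPM in S5A. Its difference was -1.75 ± 0.19 (edgeR adjusted p = 1.99e-05). On the authors' factors TTN stood at -1.12 in Y1F and 1.22 in S5A, and SHISA2 at -0.93 and 0.74.

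Several genes rose in both lines and more in S5A. CTSK, the lysosomal protease cathepsin K, went from 3.38 and 2.90 CPM to 7.48 and 7.12 CPM in Y1F and from 2.65 and 3.01 CPM to 20.5 and 22.3 CPM in S5A (difference -1.71 ± 0.23). MAPK13, a p38-type stress kinase, went from 4.70 and 3.78 CPM to 7.48 and 6.95 CPM in Y1F and from 3.10 and 2.52 CPM to 16.9 and 19.5 CPM in S5A (difference -1.91 ± 0.29). H2AC6, a replication-dependent histone gene whose RNA normally ends without a poly(A) tail, went from 2.80 and 3.16 CPM to 7.48 and 8.26 CPM in Y1F and from 3.55 and 3.25 CPM to 24.2 and 26 CPM in S5A (difference -1.49 ± 0.24). With the authors' factors MAPK13 stood at -0.05 in Y1F. In all 3 the treated S5A libraries were the highest. SSBP3-AS1, an antisense transcript, rose by 1.63 in Y1F and 4.03 in S5A. The sources do not say whether counting used strand, so reads of an antisense gene and its partner cannot be told apart.

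CA2 (chromosome 8, 85463852 to 85481493), the cytosolic carbonic anhydrase II, had the smallest adjusted p among the named genes. It went from 194 and 204 CPM to 47.8 and 52.3 CPM in Y1F and stood at 290 and 285 CPM untreated and 293 and 286 CPM treated in S5A. It fell by 2.0 ± 0.08 on the log2 scale in Y1F, and in S5A the value was 0.01 ± 0.08 (adjusted p = 0.953). On the authors' factors CA2 stood at -2.83 in Y1F and -0.90 in S5A. The difference was -2.0 ± 0.11, 4.01-fold, with an edgeR adjusted p of 5.99e-10. The lines already differed before treatment by -0.53 (adjusted p = 0.00039), in the same direction.

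A small set fell in Y1F and rose in S5A relative to the typical gene. SNHG15 (chromosome 7, 44983023 to 44986961) and SNHG17 (chromosome 20, 38420588 to 38435353) are host genes, whose introns carry small nucleolar RNAs. SNHG15 went from 66 and 55.3 CPM to 24 and 26.5 CPM in Y1F and from 53.7 and 59.2 CPM to 71.2 and 78.6 CPM in S5A. SNHG17 went from 59 and 57 CPM to 23.8 and 27.4 CPM in Y1F and from 56 and 60.3 CPM to 77.9 and 74.8 CPM in S5A. For both genes the treated Y1F libraries were the lowest and the treated S5A libraries the highest of the 8. The differences were -1.68 ± 0.18 and -1.58 ± 0.17, each with an edgeR adjusted p of 1.99e-05.

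FEM1A (chromosome 19, 4791681 to 4801273), a substrate receptor of cullin-RING ubiquitin ligases, had the same shape, from 14.5 and 10.5 CPM to 5.12 and 5.07 CPM in Y1F and from 12.6 and 14 CPM to 18.8 and 19.4 CPM in S5A (difference -1.82 ± 0.28, edgeR adjusted p = 0.000841). RGS2 (chromosome 1, 192809039 to 192812283), which switches off G-protein signalling, was the reverse, from 19.2 and 23.8 CPM to 38.2 and 36.9 CPM in Y1F and from 22 and 24.3 CPM to 15.5 and 14.4 CPM in S5A (difference 1.43 ± 0.21, edgeR adjusted p = 0.000533). The directions within a line depended on the scaling. Of the 62 genes called in opposite directions, 37 kept opposite signs when scaled on mitochondrial mRNAs, and 3 of these were still called in both lines. By the authors' factors 11 kept opposite signs and 0 were called in both lines. With the authors' factors SNHG15 fell by 2.10 in Y1F and by 0.50 in S5A, and RGS2 stood at -0.03 in Y1F and fell by 1.53 in S5A.

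**Figure D3:**
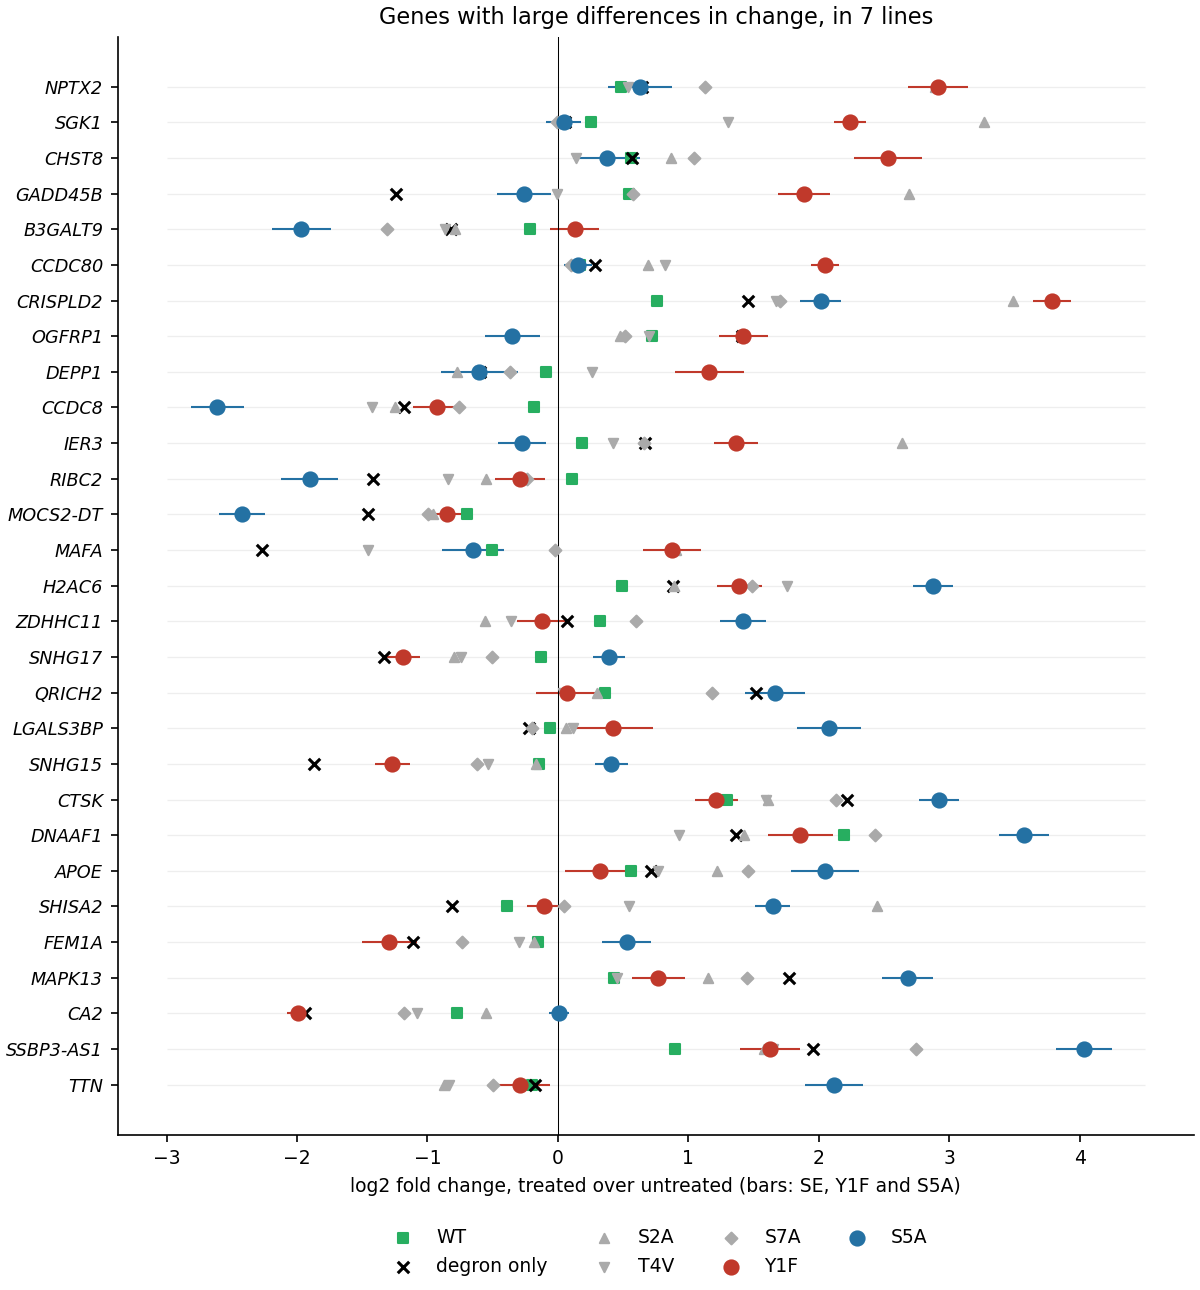
Log2 change on treatment of 29 leading genes in the Y1F and S5A lines, with bars of 1 SE, and in the WT, S2A, T4V and S7A lines and the line with the degron alone, without error bars. SGK1 changes most in S2A (3.27) and Y1F (2.24), and TTN is above 0 only in S5A (2.12).

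The changes of the same genes in the other lines are given as values, without a test of the differences between them. SGK1 was at 3.27 in S2A, 1.30 in T4V, 0.26 in WT and 0.05 with the degron alone. GADD45B was at 2.69 in S2A and -1.24 with the degron alone. TTN lay between -0.87 and -0.18 in the other lines, while SHISA2, level in Y1F, was at 2.45 in S2A. For CA2 the degron alone gave -1.94, close to the Y1F value, and WT gave -0.78. SNHG15 was at -1.87 and SNHG17 at -1.33 with the degron alone. These values show no single ordering of the lines across the named genes.

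Among 51 tested immediate early genes and other genes with short-lived mRNAs, which respond quickly to signals, 10 were higher in Y1F and 0 lower (19.6%, against 2.42% of all genes). The median difference was 0.43, against 0.02 over all genes. The list's median change was 0.10 in Y1F, with 18 up and 10 down, and -0.26 in S5A, with 12 up and 19 down. Over all genes 21.4% were up and 22.8% down in Y1F, and 23.7% up and 26.4% down in S5A. Besides GADD45B and IER3, the called genes were KLF4 (difference 1.36), FOSB (1.34), CITED2 (1.31), RHOB (1.03), DUSP1 (1.02), HES1 (0.73), ATF3 (0.69) and BTG2 (0.67). Genes not called included FOS at 0.54, JUN at 0.68, EGR1 at -0.02 and MYC at 0.47. MYC fell steeply in both lines, from 259 and 230 CPM to 17.2 and 18.9 CPM in Y1F and from 261 and 259 CPM to 13.5 and 14.1 CPM in S5A. The count of 10 was 7 without untreated Y1F replicate 1, 5 without untreated Y1F replicate 2 and 6 without either treated Y1F library. It was 6 without untreated S5A replicate 1, 9 without untreated S5A replicate 2, 7 without treated S5A replicate 1 and 6 without treated S5A replicate 2. The median stayed between 0.29 and 0.47 over these fits. GADD45B, IER3, KLF4, CITED2 and RHOB kept their calls in all 8, FOSB in 7, DUSP1 in 1, HES1 in 2, and ATF3 and BTG2 in 1 each.

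Of 20 BMP and TGF-beta targets and inhibitors, 10 fell in Y1F and 11 in S5A. Over all genes 22.8% and 26.4% fell. In the difference, 3 were higher in Y1F (15%, against 2.42% of all genes) and 0 lower, with a median of 0.27. ID2, an inhibitor of DNA binding by helix-loop-helix factors, was at 130 and 142 CPM untreated and 133 and 137 CPM treated in Y1F, and fell from 125 and 122 CPM to 68.9 and 65.2 CPM in S5A (difference 0.87 ± 0.11, edgeR adjusted p = 0.000118). Its relative ID4 had a difference of 1.05 (edgeR adjusted p = 0.000204), with 70.4 and 62.3 CPM going to 54.5 and 54.7 CPM in Y1F and 68 and 64 CPM going to 26 and 26.3 CPM in S5A. The treated S5A libraries were the lowest for both. The other called member was the ligand BMP2 (0.69), which kept its call in 0 of the 8 fits that left out a library.

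Of 31 Notch and Wnt feedback genes, 4 were higher in Y1F (12.9%, against 2.42% of all genes) and 1 lower (3.23%, against 1.3%), with a median difference of 0.16. FZD7, a Wnt receptor, fell from 138 and 128 CPM to 78.7 and 87.7 CPM in Y1F and from 108 and 116 CPM to 37.2 and 36.4 CPM in S5A (difference 0.92 ± 0.16, edgeR adjusted p = 0.00158). HEY1, a repressor induced by Notch, fell by 1.85 in Y1F and by 2.57 in S5A. The others were HES1 (0.73) and NRARP (0.69), also Notch targets, and the Notch ligand JAG1 (-0.72), which rose in S5A only among the 2 lines. HES1, JAG1 and NRARP kept their calls in 2, 2 and 1 of the 8 fits.

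In the transcription machinery the shares called are to be read against 2.42% higher and 1.3% lower over all genes. None of the 11 other subunits of RNA polymerase II was called (median difference 0.03), nor any of 12 CTD phosphatases (-0.05). Of 20 CTD kinases and their cyclins, CCNL2, a cyclin of splicing-linked kinases, was lower in Y1F (-0.54), and of 16 capping and CTD-binding factors SCAF8, an anti-termination factor, was lower (-0.76). These calls held in 1 and 3 of the 8 fits that left out a library. Of 28 pausing and elongation factors, HEXIM1, which with the 7SK RNA holds the elongation kinase P-TEFb inactive, was the only one called. It went from 66.9 and 58.8 CPM to 247 and 261 CPM in Y1F and from 57.1 and 64.5 CPM to 125 and 128 CPM in S5A. HEXIM1 rose in both lines, by 2.01 and 1.06, and the treated Y1F libraries were the highest (difference 0.95 ± 0.15, edgeR adjusted p = 0.000733).

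The Integrator complex cleaves nascent RNA and ends transcription early, and 3 of its 15 subunits were higher in Y1F and 0 lower (20%, against 2.42% of all genes; median difference 0.26). INTS14 fell from 110 and 114 CPM to 70.8 and 66.2 CPM in Y1F and from 104 and 112 CPM to 43.2 and 39.5 CPM in S5A (difference 0.67 ± 0.12, edgeR adjusted p = 0.00266). INTS3 (0.67) and INTS2 (0.81) kept their calls in 2 and 1 of the 8 fits. Of 22 cleavage, polyadenylation and termination factors, CSTF2T, a cleavage stimulation factor, was called. It was at 77.6 and 76 CPM untreated and 65.1 and 67.2 CPM treated in Y1F, and fell from 78.4 and 79.5 CPM to 38.7 and 36.9 CPM in S5A (difference 0.85 ± 0.12, edgeR adjusted p = 0.000247). The treated S5A libraries were the lowest. Of 29 Mediator subunits, MED29 (0.67) and MED8 (0.58) were higher in Y1F (6.9%, against 2.42% of all genes) and kept their calls in 0 and 2 of the 8 fits.

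Of 30 SR and hnRNP splicing factors, 25 fell in Y1F and 23 in S5A (medians -0.62 in Y1F and -0.50 in S5A). Over all genes 22.8% and 26.4% fell. SRSF8 was higher (0.82) and SRSF4 lower (-0.72) in Y1F, 3.33% each way, against 2.42% higher and 1.3% lower of all genes. SRSF4 did not pass after correction for GC content (adjusted p = 0.108). SNHG15 and SNHG17 were the 2 called of 26 snoRNA host genes, both lower in Y1F (7.69%, against 1.3% of all genes). Of the 26, 15 fell in Y1F and 13 in S5A, against 22.8% and 26.4% of all genes, and their median difference was 0.03. Of 33 replication-dependent histone genes, 29 rose in Y1F and 30 in S5A, against 21.4% and 23.7% of all genes. Their medians were 2.07 and 2.29. Differences of single members ran from -2.38 to 2.14, and the only one that passed was that of H2AC6 (3.03% lower, against 1.3% of all genes).

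Of 32 G2 and mitosis genes, 11 fell in Y1F and 17 in S5A, against 22.8% and 26.4% of all genes. Of the 32, 29 had a difference above 0 (median 0.25), against 10378 of all 19982 genes. The difference passed in 4, all higher in Y1F (12.5%, against 2.42% of all genes). CCNB1, the cyclin that drives entry into mitosis, fell from 202 and 222 CPM to 116 and 114 CPM in Y1F and from 228 and 219 CPM to 78.7 and 73.9 CPM in S5A (difference 0.66, edgeR adjusted p = 0.00386). AURKA (0.65), AURKB (0.83) and CDC25C (0.85) kept their calls in 6, 0 and 6 of the 8 fits. The count of 4 was 2 without treated Y1F replicate 2, without untreated S5A replicate 1 and without either treated S5A library, and 3 without the other 4.

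Mitochondrial ribosomal protein genes, which are nuclear, fell in 30 of 45 cases in Y1F and 35 in S5A, against 22.8% and 26.4% of all genes. A difference above 0 was seen in 37 of the 45 (median 0.32), against 10378 of all 19982 genes. MRPL17 (0.98), MRPS18A (0.96), MRPS23 (0.51) and MRPS16 (0.43) passed (8.89%, against 2.42% of all genes). MRPS18A, MRPS23 and MRPS16 kept their calls in 4, 1 and 0 of the 8 fits. MRPL17 lost its call only without untreated Y1F replicate 2 (adjusted p = 0.054), and over the fits that left out a library the count ran from 0, without that library, to 3 without treated Y1F replicate 1. The 13 mRNAs of the mitochondrial genome itself had differences of -0.44 to -0.26, none of which passed in the fit to 30 libraries, while 6 passed as lower on the 8 libraries alone, 6 after GC correction and 8 after GC correction with a replicate block. In the single lines 7 were up in Y1F and 12 up in S5A, against 21.4% and 23.7% of all genes. Scaled on themselves they are by construction near 0. None of 79 cytosolic ribosomal protein genes (median -0.09), 50 nuclear respiratory chain genes, 31 proteasome subunits or 24 cholesterol genes was called.

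**Figure D4:**
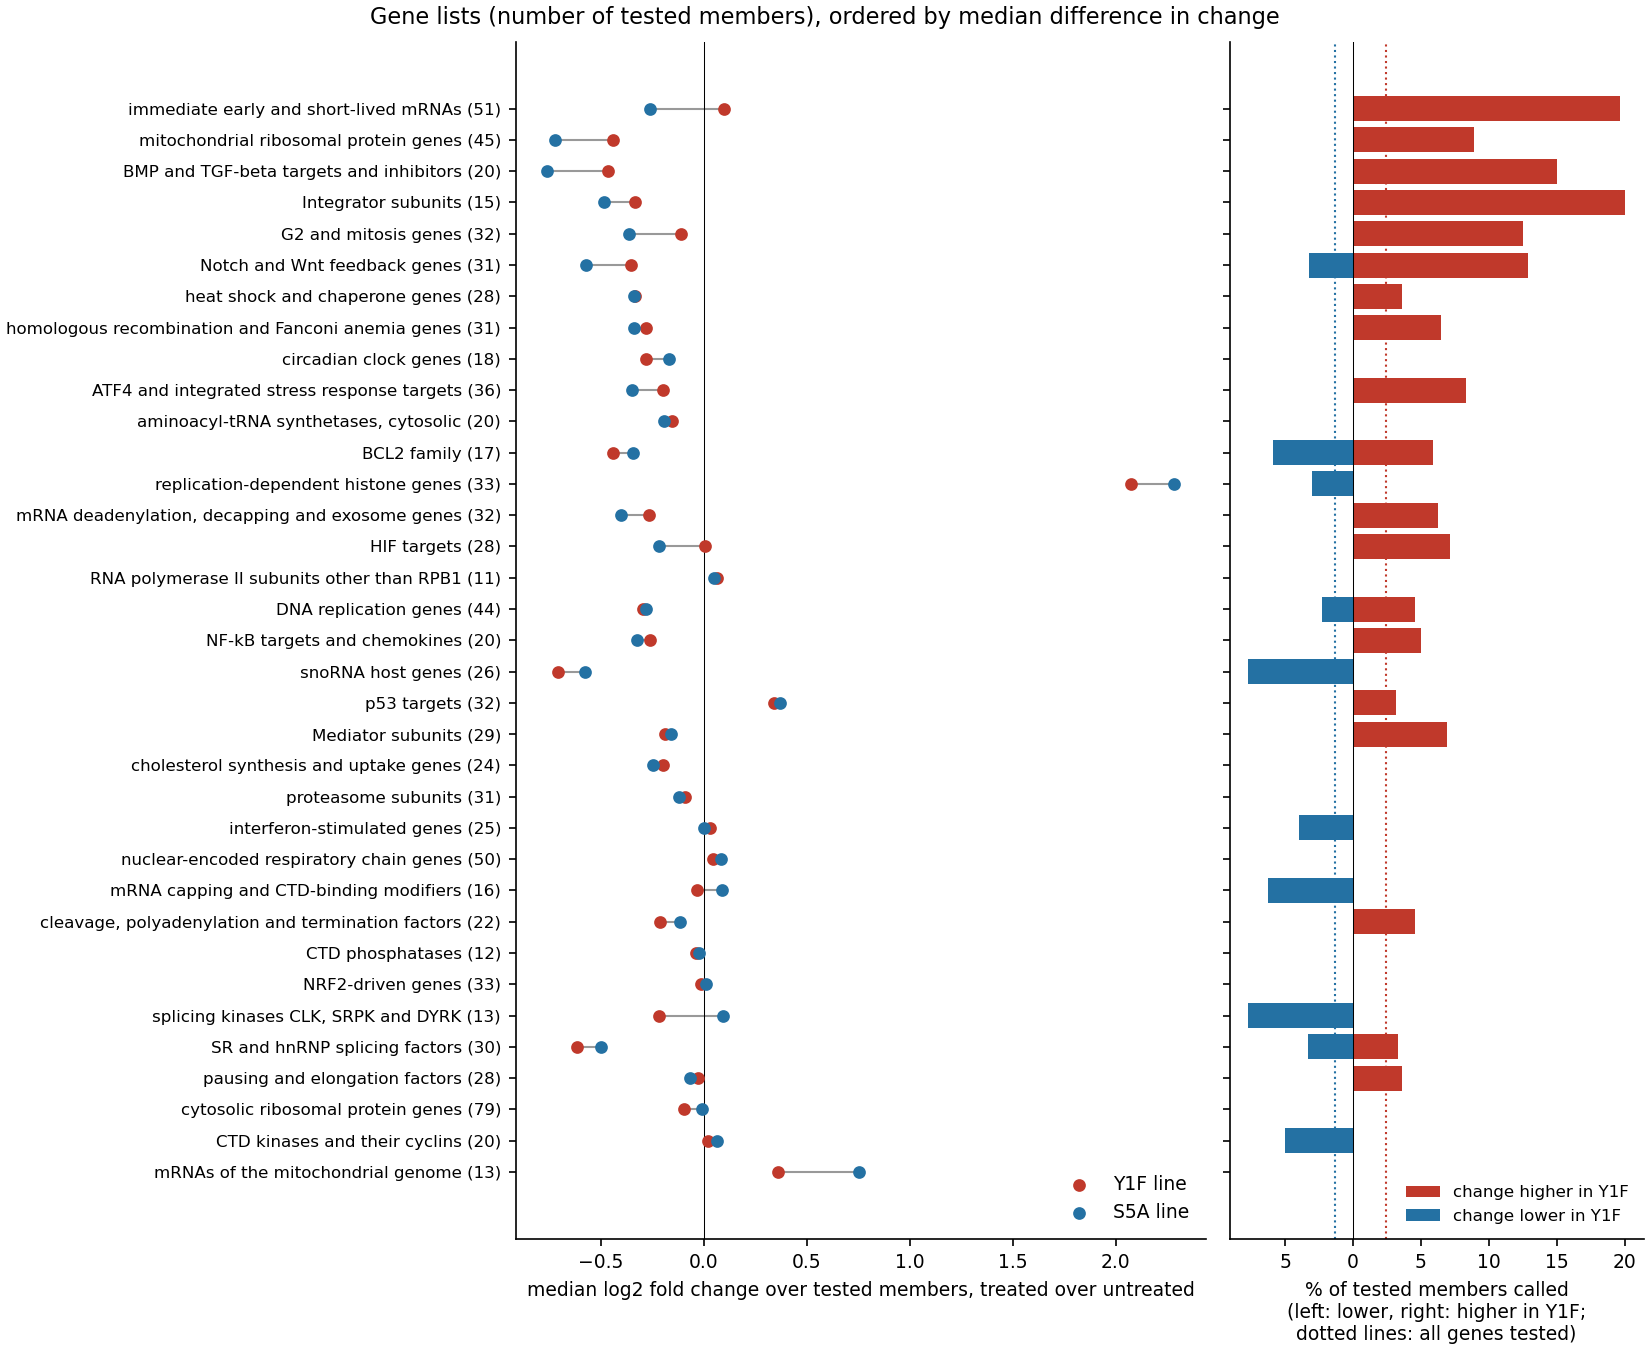
Left, median log2 change on treatment of each gene list in the Y1F and S5A lines, lists ordered by median difference from the immediate early list (0.43) to the mRNAs of the mitochondrial genome (-0.37). Right, percent of tested members called higher (to the right) or lower (to the left) in Y1F, with dotted lines at the 2.42% and 1.3% of all genes; the Integrator (20%) and immediate early (19.6%) lists reach farthest to the right.

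Stress pathways had 1 higher call of 20 NF-kB targets (5%), 2 of 28 HIF targets (7.14%), 3 of 36 ATF4 targets (8.33%), 1 of 28 heat shock and chaperone genes (3.57%) and 1 of 32 p53 targets (3.12%), against 2.42% of all genes. Among genes of at least 5 CPM, 385 of 11506 were higher in Y1F. NFKBIA, the inhibitor that NF-kB induces against itself, was at 15 and 13.5 CPM untreated and 15.2 and 16.3 CPM treated in Y1F, and fell from 19.7 and 17.1 CPM to 7.31 and 9.93 CPM in S5A (difference 1.23 ± 0.18, edgeR adjusted p = 0.000645). It was the NF-kB target called. ADM, a vasodilator peptide induced in hypoxia, was higher in Y1F by 1.2 on the log2 scale but already differed between the untreated lines (adjusted p = 0.00852). The other HIF target was PFKFB3 (0.74), and the heat shock gene was DNAJB1 (0.64), which kept their calls in 4 and 1 of the 8 fits that left out a library. The median differences of the p53 and ATF4 lists were 0.03 and 0.12. Of their called genes, BTG2 and ATF3 were also counted in the immediate early list. The p53 target was BTG2, and the ATF4 targets were STC2 (0.74), ATF3 (0.69) and ATF4 itself (0.66), the last of which kept its call in 6 of the 8 fits that left out a library. On DESeq2 size factors ATF4 stood at -1.72 in Y1F and -2.34 in S5A, STC2 at -0.61 and -1.32 and DNAJB1 at -0.67 and -1.28. ATF3 stood at 1.71 and 1.05, PFKFB3 at 0.58 and -0.13 and BTG2 at 0.15 and -0.48. Of the 36 ATF4 targets 5 rose and 14 fell in Y1F, and 2 rose and 17 fell in S5A. Of the 28 heat shock and chaperone genes 4 rose and 12 fell in Y1F, and 4 rose and 15 fell in S5A. Over all genes 21.4% rose and 22.8% fell in Y1F, and 23.7% rose and 26.4% fell in S5A.

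Divergent transcripts, noncoding RNAs named -DT that start opposite a neighbouring gene, had a median difference of 0.42 over 364 tested, with 17 higher in Y1F (4.67%) and 1, RNF32-DT, lower (0.275%). Their median changes were 0.69 in Y1F and 0.44 in S5A. Leaving out a library gave 7 to 12 higher calls: 10 and 12 without untreated Y1F replicates 1 and 2, 8 and 12 without treated Y1F replicates 1 and 2, 10 and 11 without untreated S5A replicates 1 and 2, and 7 without either treated S5A library. Antisense genes named -AS1 had a median of 0.20 over 664, with 22 higher (3.31%) and 10 lower (1.51%), against 2.42% and 1.3% of all genes. Of 390 genes named LINC, 6 were higher (1.54%), and LINC00622, LINC01128, LINC02988 and LINC02995 were lower (1.03%). Zinc finger genes named ZNF had a median of 0.00 over 503, with 17 higher (3.38%) and 12 lower (2.39%). Without strand in the counting, part of the reads of -DT and -AS1 genes may belong to their neighbours.

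Genes higher in Y1F had a lower median length than genes lower in it. Among genes of at least 5 CPM, the median length was 14.8 kb in those higher in Y1F (n = 379 with a length), 32.3 kb in those lower (n = 182) and 34.6 kb in all 11392. In the shortest 20% of genes, up to 11 kb, the median difference was 0.14, with medians of -0.24 in Y1F and -0.40 in S5A, and 154 genes were higher (6.76%) against 34 lower (1.49%). In the longest 20% the median difference was -0.01, and 36 were higher (1.58%) against 29 lower (1.27%). The median GC content of transcripts moved with length, from 55.1% in the shortest 20% to 44.5% in the longest, and correction for GC left the shortest 20% at 0.14. Without untreated Y1F replicate 1 that median was 0.22, without untreated Y1F replicate 2 it was 0.07, without treated Y1F replicate 2 it was 0.09, and without any of the others it lay between 0.13 and 0.18. With mitochondrial scaling it was 0.52, against 0.40 for all genes.

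**Figure D5:**
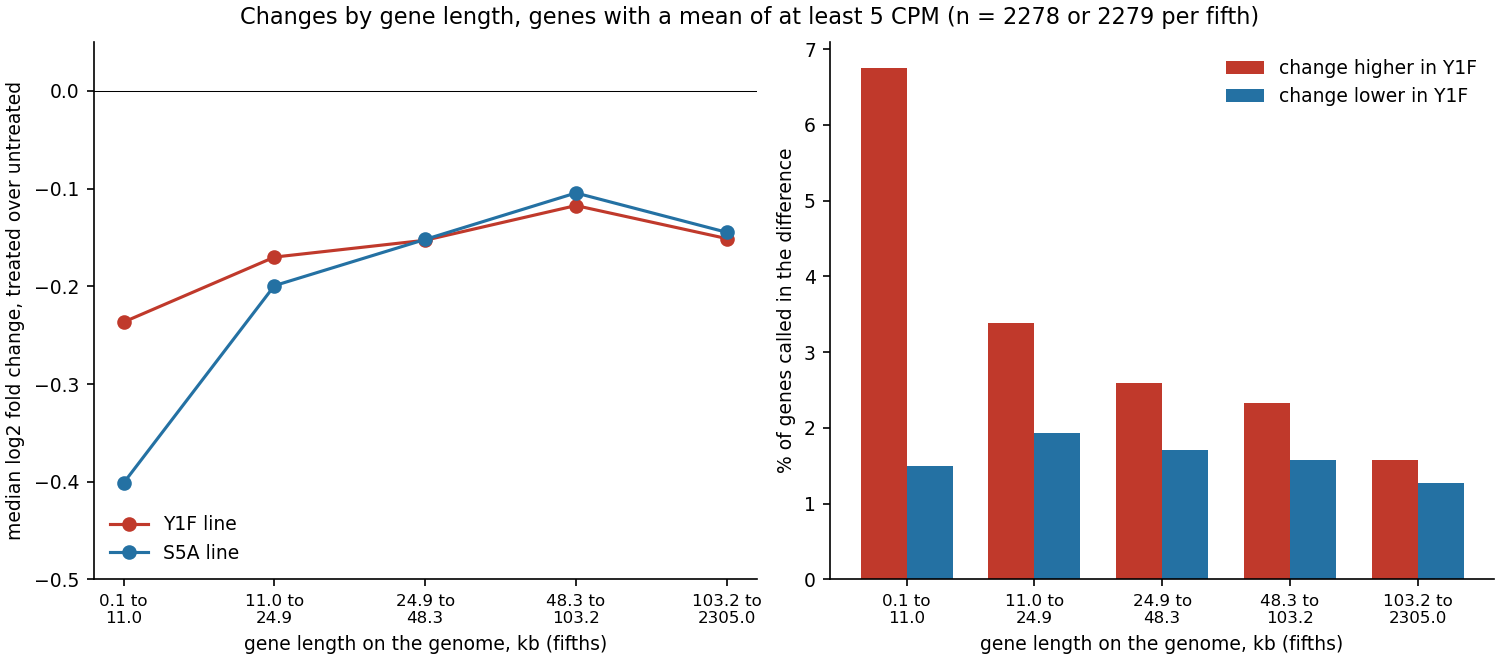
Left, median log2 change on treatment in the Y1F and S5A lines in 5 equal bins of gene length, for 11392 annotated genes of at least 5 CPM. Right, percent of genes in each bin called higher or lower in Y1F; the shortest bin has the widest gap between the lines (-0.24 and -0.40) and the largest share higher in Y1F (6.76%).

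Promoters were compared over the 250 bases before the start of genes with a single start in RefSeq, on both strands. CCAAT was present in 44.2% of 274 genes higher in Y1F and 33.6% of 128 lower, against 35.4% of 9572 tested genes and 32% of all 35116 promoters. TATAAA was present in 9.12% and 7.81%, against 6.03% of tested genes and 10.7% of all. GGGCGG was present in 67.5% and 60.9%, against 66.4% and 42.6%. CACGTG was present in 9.49% and 4.69%, against 8.71% and 6.34%. TGACTCA was present in 0.365% and 2.34%, against 2.7% and 4.2%, and TGACGTCA in 3.28% and 2.34%, against 3.07% and 1.65%. None of the 6 motifs contains another. No test was made of these shares.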

How the data were processed

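Reads were trimmed with Trim Galore 0.6.2, aligned with STAR 2.7.3a to hg38 and dm6 and counted with featureCounts 2.0.1, per the submitters' processing notes. Fly S2 cells were added as a spike-in at 10%, per the labels' protocols, but no fly genes are in the tables used here. The deposited values used were raw read counts per gene for the 30 libraries. The authors also deposited TPM values, not used here, and tables per line with signal (mean of counts divided by a factor per library), log2 fold changes and p-values; their factors were recovered from these.

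Counts of all 30 libraries were fitted in edgeR 4.0.16 (R 4.3.3; robust quasi-likelihood, TMM, 15 groups, 15 residual degrees of freedom). Genes passing a minimum count of 10 and total of 15 were kept, 19982 of 61578. Standard errors are the log2 change over the square root of F. P-values were adjusted by Benjamini-Hochberg over all genes tested, and the call was an adjusted p under 0.05. Coordinates are GRCh38 (GENCODE release 29), and promoters are RefSeq GRCh38.p14. Alternatives were DESeq2 1.42.0, 3 scalings, filters, a replicate block, GC correction and leaving out each library. The fit of the difference was also run on simulated counts. These were drawn with the same dispersion for every gene and library, so they did not include the wider spread of the Y1F libraries.

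Named genes were up to 15 in each direction by size of the difference, among called genes with a symbol, a mean of at least 5 CPM and no overlap between lines, up to 6 each way called in opposite directions, and up to 4 called members of each of 35 lists. Other list members were named after their values were seen. The comparison and the lists were chosen with earlier results of these data known. 1 gene that the rule names is not reported here.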

Additional observations from a re-analysis of the deposited data

Results flagged for a closer look

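The responses of the 2 lines differed in 744 genes by edgeR's quasi-likelihood test of the difference itself, and genes called in opposite directions were looked at again. Fallen in Y1F and risen in S5A, relative to the typical gene, were FEM1A (difference -1.82 on the log2 scale), SNHG15 (-1.68), SNHG17 (-1.58), SULT4A1 (-1.41), a sulfotransferase-family gene of the brain, ZNF180 (-1.41), a zinc finger gene, and CHRNA3 (-1.35), a nicotinic acetylcholine receptor subunit. SULT4A1 went from 23 and 23.9 CPM to 12.1 and 13.3 CPM in Y1F and from 23 and 28.5 CPM to 36.7 and 37.2 CPM in S5A. The call of the difference held in these 6 genes when any of the 8 libraries was left out. The calls in the single lines were not followed in those fits. With the authors' factors all 6 stood below 0 in both lines, at -2.11 to -1.61 in Y1F and -0.51 to -0.27 in S5A.

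Risen in Y1F and fallen in S5A, relative to the typical gene, were MAFA (1.53), TRO (1.45), RGS2 (1.43), ANKRD34A (1.36), CCDC103 (1.28) and DPH5-DT (1.27). With the authors' factors these stood at -1.56 to -1.33 in S5A. In Y1F MAFA and TRO then stood at 0.05 and 0.21, and the others at -0.20 to -0.03. MAFA, a transcription factor, went from 4.62 and 4.13 CPM to 7.83 and 8.26 CPM in Y1F and from 6.13 and 5.2 CPM to 3.57 and 3.65 CPM in S5A. It lost its call without untreated Y1F replicate 2 (adjusted p = 0.0622) and without untreated S5A replicate 1 (0.081). CCDC103 lost its call without treated S5A replicate 2 (0.0597). DPH5-DT lost it without untreated Y1F replicate 1 (0.0636), treated Y1F replicate 1 (0.0565) and treated S5A replicates 1 (0.0563) and 2 (0.0555). TRO lost it without untreated Y1F replicates 1 (0.102) and 2 (0.0834), treated Y1F replicates 1 (0.0568) and 2 (0.08) and treated S5A replicate 1 (0.0508). ANKRD34A lost it without untreated Y1F replicates 1 (0.0511) and 2 (0.124), treated Y1F replicate 2 (0.0946), untreated S5A replicate 2 (0.142) and treated S5A replicates 1 (0.0525) and 2 (0.12). TRO already differed between the untreated lines, at 0.742 and 0.791 CPM in Y1F and 11.9 and 11.6 CPM in S5A (edgeR adjusted p = 2.23e-10).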

How the results depend on the processing

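Of the 30 leading genes, which were chosen for large differences, 28 to 30 kept the call under the 11 alternative settings, and 24 kept it with each library left out in turn. The count of 744 was 2729 with mitochondrial scaling, 1359 on the 8 libraries alone and 3368 after a GC correction, which shared 731 of the 744; it was 301 to 424 with 1 library left out. Untreated lines differed in 659 genes, and in 1718 with mitochondrial scaling (64 higher and 1654 lower), 1130 on the 8 libraries alone, 2279 after GC correction and 202 to 626 with a library left out. Treated lines differed in 4416 genes, 7881 after GC correction and 2330 to 4447 with a library left out. The Y1F count was 14105 with the authors' factors (1689 up and 12416 down) and 5353 among genes of at least 5 CPM, and the S5A count 6070 among the latter, where fewer genes were tested. With mitochondrial scaling the splits were 2667 up and 7326 down in Y1F, 2121 and 11359 in S5A, and 2683 higher and 1186 lower between the treated lines. With the authors' factors the split in S5A was 1805 and 12897. DESeq2 size factors gave 4923 up and 3836 down in Y1F and 5585 and 4322 in S5A. The authors' factors were not run between lines, since they set levels only within a line. Apart from the fewer genes or libraries some settings use, the cause of these moves was not tested.

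Replicate numbers are shared between groups, but no label says that they pair the libraries. Same-numbered libraries deviated with a correlation of -0.627 in Y1F and 0.00308 in S5A over 11506 genes. The 2 libraries of a group differed more in Y1F (chi-square per degree of freedom 8.6 untreated and 5.03 treated) than in S5A (1.89 and 1.4), while the fit used 1 shared model of the spread. A replicate block gave 308 calls in the difference and 286 between untreated lines, and with the GC correction the block gave 3029, 2105 and, between treated lines, 7477. A crossed pairing in Y1F, chosen after seeing the data, gave 416 and 418.

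Depth limits low genes: the median SE of the difference was 0.23 on the log2 scale at 5 CPM or more and 0.68 below.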
